A study of Mus musculus with 70 samples.

Results

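Foxp1, Ppp1r1b, Adora2a, Rarb, Pde1b and Pde10a are known as genes of the projection neurons of the striatum, and their spots were followed here in a mouse line bred for high anxiety-related behavior (HAB) and a line bred for low (LAB). A spot was taken as a member when its name on the array was the full name or the symbol of one of the 6 genes, or an older clone name that RefSeq lists as a synonym of it. All 6 genes were found, with 9 probes among the 22824 probes left after 1368 control spots were set aside from 24192. Foxp1 had 3 probes, Pde10a had 2 and the other genes had 1 each. Only 1 Foxp1 spot bears the name forkhead box P1, and the other 2 are named RIKEN cDNA 3110052D19 gene. Below, the 3 Foxp1 probes and the 2 Pde10a probes are numbered from the brightest to the dimmest.

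The mice were males of CD-1 (ICR) stock, aged 10 weeks, and no mice outside the 2 selected lines were on these arrays. They were given no treatment, but the paper states that they were tested on the elevated plus-maze and by tail suspension before they were killed. RNA of 6 HAB mice and RNA of 6 LAB mice was pooled for each of 7 regions, namely the nucleus accumbens (NAc), cingulate cortex (Cg), basolateral (BLA), central (CeA) and medial (MeA) amygdala, and the hypothalamic paraventricular (PVN) and supraoptic (SON) nuclei. The punch of the NAc was 1 mm wide and held the core with some of the shell. The SON was taken with a smaller punch of 0.5 mm, and the other regions with 1 mm. Each pair of pools was hybridized on 10 two-colour cDNA arrays, with HAB in Cy3 on 5 and HAB in Cy5 on the other 5, which gave 70 arrays in all. Within a region the 10 arrays repeat the same 2 pools, so a p-value over arrays compares those pools and leaves out the spread between mice.

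Striatal projection neurons are inhibitory cells that receive glutamate from the cortex and dopamine from the midbrain. Dopamine and adenosine receptors raise or lower cAMP in them, protein kinase A phosphorylates the product of Ppp1r1b (DARPP-32), which then inhibits protein phosphatase 1, and the phosphodiesterases encoded by Pde1b and Pde10a break cyclic nucleotides down. Adora2a encodes the adenosine receptor of the neurons that carry the D2 dopamine receptor. Foxp1 is a forkhead transcription factor and Rarb a nuclear receptor for retinoic acid, and both are known from the development of these neurons. Foxp1 is also expressed in the cortex.

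The regulatory sequences that bear on the transcription factors in this group are shown first. RefSeq promoter windows of assembly GRCm38.p6, from 250 bases before to 50 bases after a start site, were given for Foxp1 (3 windows), Rarb (1), Pde1b (3) and Pde10a (2). They were searched on both strands for the retinoic acid response element written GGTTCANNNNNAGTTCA, a direct repeat through which retinoic acid receptors are known to act, for the forkhead motif TGTTTAC, and for the cAMP response element half-site TGACGT, with no overlap between the matches found. The first was found in 1 of these 9 windows, that of Rarb, and in 2 of all 32851 windows (0.00609%). Its fixed letters are exactly those of the Rarb window, with no variant allowed. The match in Rarb is therefore no independent finding, and the low share does not measure how rare such elements are. The forkhead motif was found in 1 of the 9, the middle window of Pde1b, and in 3.65% of all windows. The cAMP half-site was found in 1 of the 9, a Foxp1 window, where it starts at position -225 on the opposite strand, and in 7.51% of all windows. A match says only that these letters are there. The Rarb window is shown because Rarb is a textbook target of its own receptor and its probe gave the largest line difference in the NAc among the members, and the Pde1b window because it holds the forkhead motif and the Pde1b probe was bright enough to be read in the NAc. Capitals mark the motif, which starts at position -53 from the start site in Rarb and at -99 in Pde1b.
Rarb promoter, chr14:16575427-16575726, minus strand: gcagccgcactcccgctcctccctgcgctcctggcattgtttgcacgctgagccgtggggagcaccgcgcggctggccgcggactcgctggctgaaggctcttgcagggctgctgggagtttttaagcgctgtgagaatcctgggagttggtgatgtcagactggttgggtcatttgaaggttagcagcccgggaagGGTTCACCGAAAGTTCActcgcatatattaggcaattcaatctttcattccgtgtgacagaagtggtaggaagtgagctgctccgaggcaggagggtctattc
Pde1b promoter, chr15:103506876-103507175, plus strand: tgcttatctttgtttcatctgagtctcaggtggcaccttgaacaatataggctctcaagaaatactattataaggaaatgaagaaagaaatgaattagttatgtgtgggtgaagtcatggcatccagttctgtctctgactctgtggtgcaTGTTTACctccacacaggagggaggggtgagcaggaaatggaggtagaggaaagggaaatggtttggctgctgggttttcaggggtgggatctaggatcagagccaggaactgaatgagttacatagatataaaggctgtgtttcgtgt

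The median foreground of the probes ran from 135 to 1332 over the arrays in Cy3 and from 151 to 2480 in Cy5. A channel was called above the empty spots when its foreground passed the median of the 1170 empty spots by more than 2 median absolute deviations, and 54.8% of all probes did so on at least 35 of the 70 arrays in either line. Log2 HAB/LAB of arrays of the same dye orientation correlated at a median r between 0.14 and 0.26 across these probes, and that of arrays of opposite orientation between -0.19 and 0.05, so all means below average both orientations with equal weight. The CeA array with HAB in Cy3 and replicate number 4 stood apart, with a median r of its signal of 0.417 to the other CeA arrays against region medians from 0.695 to 0.903. No scan day was shared by regions, so in a comparison of regions scan day and region cannot be told apart. The BLA, CeA and Cg were scanned on 2 days each. The smaller day of the CeA (2 arrays) and of the Cg (4 arrays) had HAB in Cy3 only, so day and dye orientation overlap there.

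The members differed widely in how well they could be read. Rarb was above the empty spots on 70 of 70 arrays in both lines. Foxp1 probe 1 was so on 64 arrays in the HAB channel and 54 in the LAB channel, Foxp1 probe 2 on 54 and 58, and Pde1b on 46 and 46. Adora2a passed on 34 and 33 arrays and Ppp1r1b on 28 and 24. Foxp1 probe 3 passed on 20 and 16, and the Pde10a probes on 7 and 5 and on 2 and 2. In the NAc, where these genes are best known, Ppp1r1b passed on 4 of 10 arrays in the HAB channel and 2 in the LAB channel, Adora2a on 9 and 4, and the 2 Pde10a probes together on 0 HAB channels and 1 LAB channel. The arrays therefore gave a readable NAc signal for Foxp1, Rarb and Pde1b, and no more than a few values above the empty spots for Ppp1r1b and Pde10a. Adora2a lay between these, readable in the NAc mainly in the HAB channel.

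**Figure D1:**
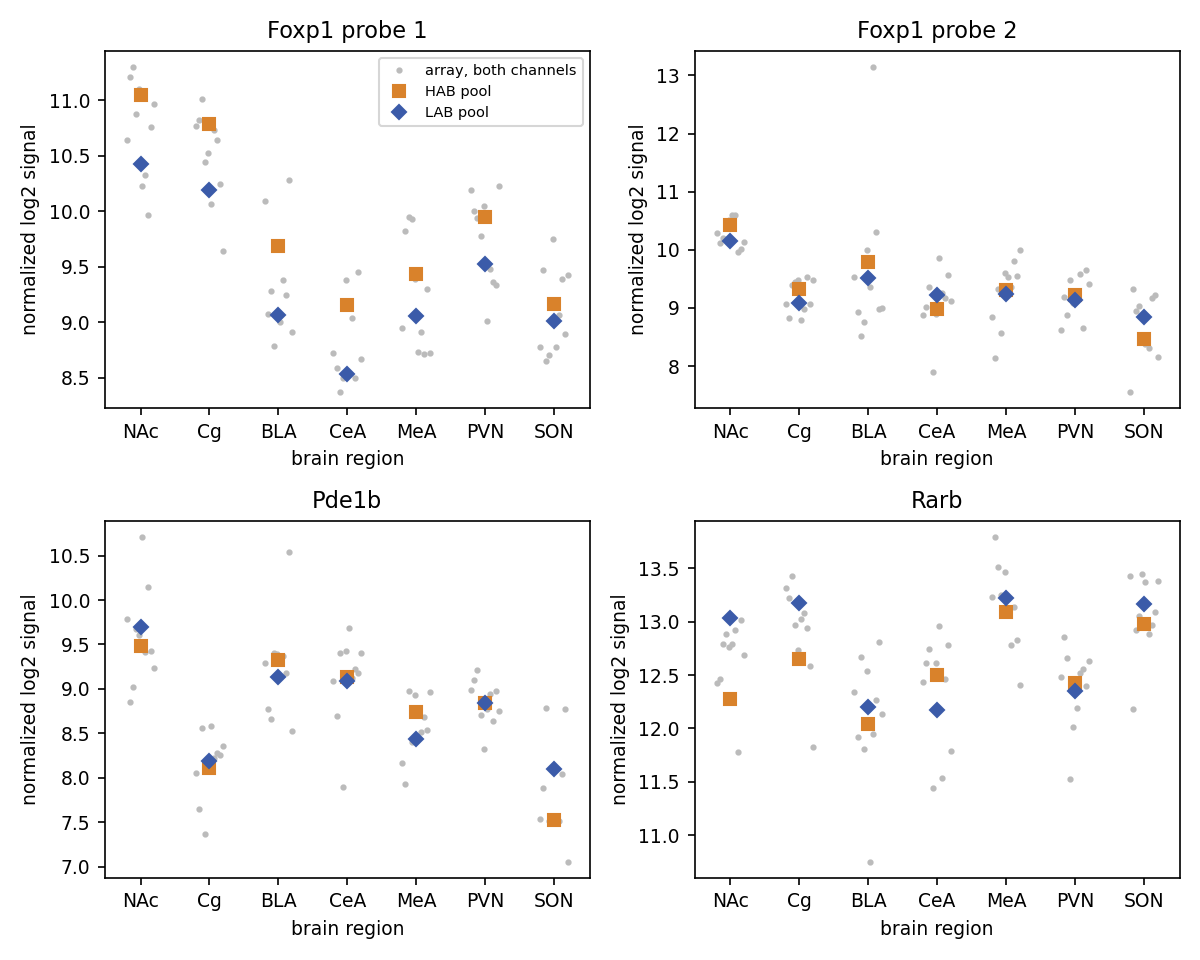
Normalized log2 signal of the 4 readable member probes in the 7 regions. Grey points are the 10 arrays of a region (mean of both channels), orange squares the HAB pool and blue diamonds the LAB pool. Both Foxp1 probes and Pde1b had their highest region mean in the NAc, and Rarb had its highest in the MeA.

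The signal of Foxp1 was highest in the NAc by both readable probes. Signal here is the mean log2 intensity of both channels after quantile normalization between arrays, and levels are compared for 1 probe at a time. Foxp1 probe 1 stood at 10.74 ± 0.44 (SD, n = 10 arrays) in the NAc, with a lowest array of 9.97, a median of 10.82 and a highest of 11.30. The Cg followed at 10.49 ± 0.41, then the PVN at 9.74 ± 0.42, the BLA at 9.38 ± 0.50, the MeA at 9.24 ± 0.51, the SON at 9.09 ± 0.39 and the CeA at 8.84 ± 0.39. Only the step from the Cg to the PVN, 0.75, was larger than the SD of the regions on either side of it, so the NAc and the Cg formed an upper pair and the other 5 regions overlapped in a row.

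Foxp1 probe 2 stood at 10.29 ± 0.24 in the NAc (n = 10 arrays), from 9.97 to 10.60 with a median of 10.24. Its other regions lay between 8.66 ± 0.57 in the SON and 9.65 ± 1.35 in the BLA, and with all arrays no step between neighbours in the order passed their SD. The spread of the BLA came from 1 array, with HAB in Cy5 and replicate number 2, at 13.15, and the mean of the other 9 was 9.26 ± 0.59. Without it the region next to the NAc was the MeA at 9.27 ± 0.58, and the step between them was larger than either SD. The Cg, where probe 1 was almost as high as in the NAc, stood at 9.21 ± 0.29 by probe 2. Across the 14 pools the 2 probes correlated at r = 0.62, and 187 of 4858 named probes were more like probe 1 than probe 2 was.

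Set against the mean of the other 6 regions, the NAc was 2.42-fold higher for Foxp1 probe 1 (log2 difference 1.27 ± 0.55, SE) and 2.16-fold higher for probe 2 (1.11 ± 0.38). These were the members with an unadjusted limma p under 0.05 (0.0448 and 0.0174), against 0.96% of all probes. Pde1b, which encodes a calmodulin-dependent phosphodiesterase, was also highest in the NAc, at 9.59 ± 0.54 against 7.82 to 9.23 elsewhere, a difference of 0.97 ± 0.53 whose unadjusted limma p did not pass 0.05. Of the 9 member probes 3 were highest in the NAc, where 8.96% of all probes were, and 11.8% of those above the empty spots on at least 35 arrays. After Benjamini-Hochberg adjustment over all probes none of the 9 member probes passed 0.05 (limma, adjusted p = 1.00 for each), and neither did any but 1 of the 22824 probes (0.00438%), with 1 NAc value against 6.

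Rarb did not follow this order. Its signal was 13.15 ± 0.40 in the MeA, 13.07 ± 0.38 in the SON, 12.91 ± 0.46 in the Cg, 12.65 ± 0.36 in the NAc, 12.38 ± 0.38 in the PVN, 12.34 ± 0.54 in the CeA and 12.12 ± 0.58 in the BLA (SD, n = 10 arrays). No step between neighbours was larger than their SD, and the NAc differed from the mean of the others by -0.01 ± 0.45. The probe was thus bright in every punch and did not set the NAc apart, and it is called here by its name on the array only. Ppp1r1b lay between 7.66 and 8.49, Adora2a between 8.04 and 8.83, Pde10a probe 1 between 7.11 and 7.59, Pde10a probe 2 between 6.98 and 7.51 and Foxp1 probe 3 between 7.75 and 8.39 outside the NAc and at 7.62 in it. No order is read from these 5 probes, which were above the empty spots on fewer than 35 arrays in each line. The 8.83 of Adora2a was in the PVN, where it passed on 10 of 10 arrays for HAB and 9 for LAB. In the NAc it passed on 9 and 4, and elsewhere on 0 to 4 and 1 to 6. Ppp1r1b passed on 6 and 9 in the PVN and on 6 and 7 in the MeA. In the NAc it passed on 4 and 2, and elsewhere on 1 to 4 and 1 to 2. Both were thus above the empty spots on more arrays in the PVN than in the NAc.

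Other genes of striatal neurons followed the NAc in part. Over the 19 on the array the median difference of the NAc from the other regions was 0.11, and 6 of them were lower in the NAc, from Actn2 at -0.64 to Ikzf1 at -0.03. The genes described next were chosen with their values known, and Foxp2 comes from the list of forkhead genes. Pdyn, the precursor of dynorphin, had its highest signal in the NAc, 10.77 against 8.68 to 9.78 elsewhere. So did Tac1, the precursor of substance P (13.02 against 10.29 to 12.36), and Foxp2, a relative of Foxp1 (9.95 against 7.88 to 9.10). Penk, the precursor of enkephalin, was highest in the BLA at 9.72, with 9.53 in the NAc. The Pdyn and Foxp2 differences had unadjusted limma p-values of 0.00356 and 0.00686, and neither passed after adjustment.

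**Figure D2:**
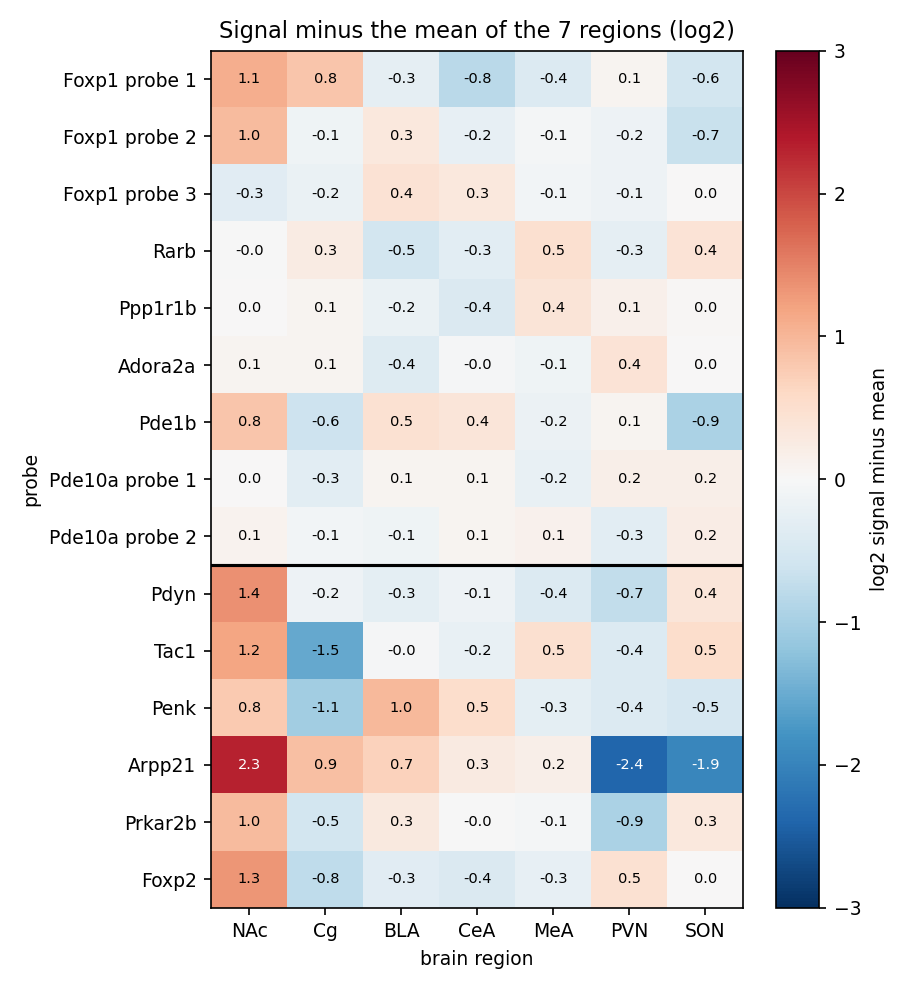
Log2 signal of each probe minus its own mean over the 7 regions, with member probes above the line and 6 other genes of striatal neurons or of their signalling below it. Red marks a region above and blue a region below the mean of that probe. Foxp1 probes 1 and 2 and Pde1b share the red NAc column with Pdyn, Tac1, Penk, Arpp21, Prkar2b and Foxp2, and the other members are pale there. Those 6 genes were drawn with their high NAc signal known (NAc minus the other regions 0.91 to 2.68), whereas the medians of the 3 lists they come from were 0.11, 0.18 and 0.07.

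Foxp1 probe 1 gave more signal from HAB than from LAB RNA in 7 of 7 regions. In the NAc the 5 arrays with HAB in Cy3 had log2 HAB/LAB of 0.22, 0.31, 0.34, 0.60 and 1.03. The 5 with HAB in Cy5 had 0.03, 0.67, 0.69, 1.07 and 1.20. All 10 lay above 0 in both dye orientations, with a mean of 0.62 ± 0.39 (SD, n = 10), or 1.53-fold.

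The Cg was alike, with all 10 arrays above 0, from 0.06 to 1.09 around a median of 0.58, and a mean of 0.60 ± 0.32. The BLA had a mean of 0.62 ± 0.47 with 9 of 10 arrays above 0, and the CeA 0.62 ± 0.50 with 9 of 10. In these 2 regions the LAB channel passed the empty spots on only 5 and 4 of 10 arrays. With HAB in Cy3 the means were 1.00 in the BLA and 0.93 in the CeA, against 0.24 and 0.31 with HAB in Cy5. The MeA stood at 0.38 ± 0.57 (8 of 10), the PVN at 0.42 ± 0.44 (8 of 10) and the SON at 0.15 ± 0.86 (7 of 10). In the SON the arrays ran from -1.38 to 1.32, so the value there was well within its spread.

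Over the 7 regions the mean was 0.49 ± 0.08 (SE, n = 7 regions), and limma gave an adjusted p of 0.00289. Of the 9 member probes this was the only 1 to pass, against 0.302% of all probes (0.127% higher in HAB and 0.175% higher in LAB). At an unadjusted p under 0.05 it was again 1 of 9, against 6.33% of all probes, and 1.09% of all probes were higher in HAB in 7 of 7 regions. The regions come from the same mice and from 1 pool each, so this p measures how alike the regions were, not the spread between mice. With HAB in Cy3 alone the mean was 0.60 (limma, adjusted p = 0.0150), while the arrays with the opposite dyes gave 0.37 and did not pass (adjusted p = 0.140). Leaving out each region in turn kept it between 0.46 and 0.54, with an adjusted p of at most 0.0198. The F-test that the difference was equal in all regions gave an adjusted p of 0.688.

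**Figure D3:**
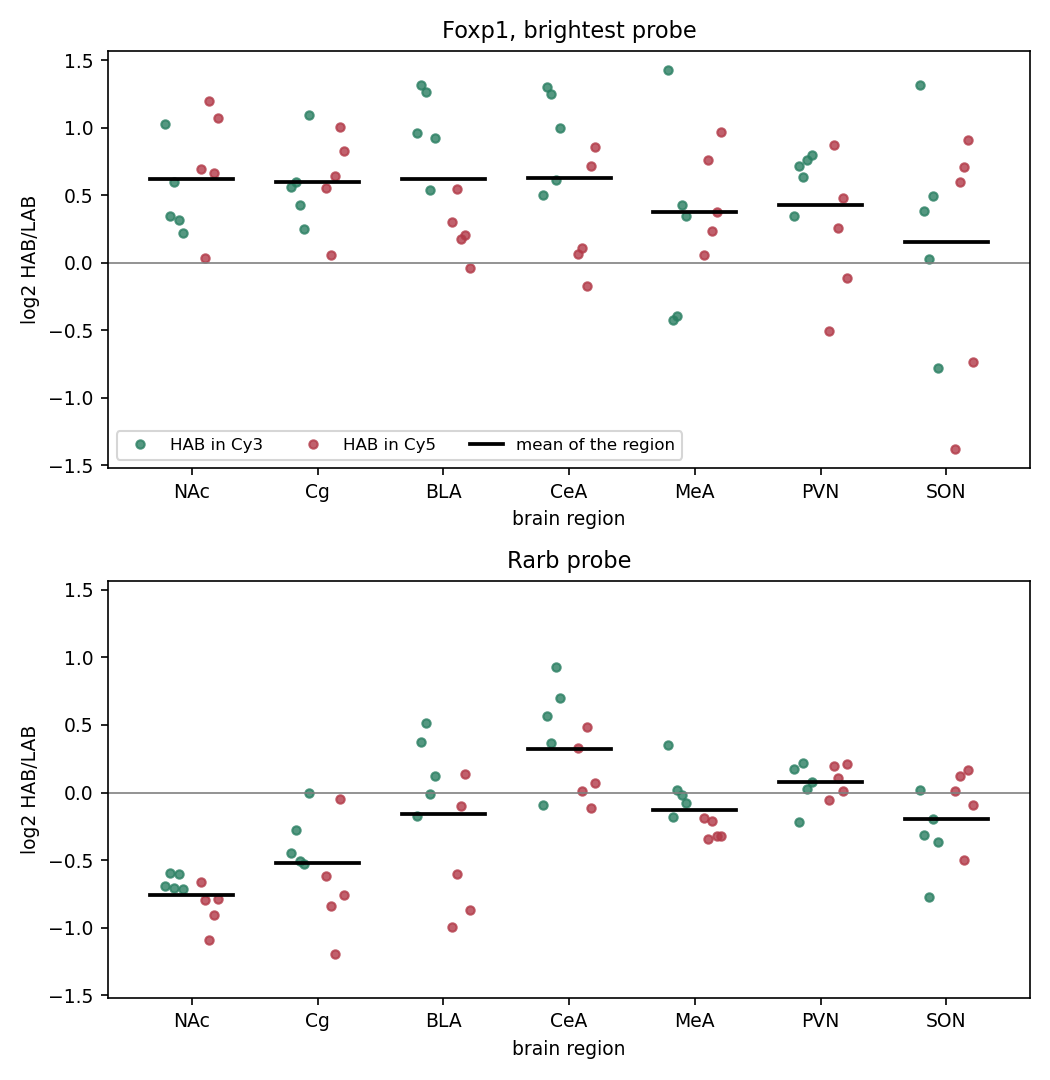
Log2 HAB/LAB of Foxp1 probe 1 (top) and Rarb (bottom) on each of the 70 arrays, by region. Green points had HAB in Cy3, red points HAB in Cy5, and black bars are the mean of both orientations. Foxp1 probe 1 has its bar above 0 in 7 of 7 regions, whereas Rarb lies below 0 on all NAc and Cg arrays and above 0 on 8 of 10 CeA arrays.

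The other Foxp1 probes did not show the same difference over the regions. Foxp1 probe 2, which bears the same RIKEN name, was above 0 on 10 of 10 NAc arrays, from 0.00 to 0.82 with a median of 0.14 and a mean of 0.28 ± 0.30. In the other regions its means ran from -0.38 in the SON to 0.26 in the BLA, the latter falling to 0.10 without the array named above. Over the 7 regions it averaged 0.04 ± 0.09 (SE), with 5 of 7 above 0 and an adjusted p of 0.977 by limma.

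Foxp1 probe 3, named forkhead box P1, averaged 0.07 ± 0.09 with regions from -0.40 to 0.34, and its NAc arrays ran from -1.49 to 1.60 around the level of the empty spots. The mean of all 3 probes was 0.20 ± 0.07 over the regions and did not pass (limma, adjusted p = 0.531). Over the 7 regions log2 HAB/LAB of probes 1 and 2 correlated at r = 0.64 (Spearman rho 0.43), given as a description since both sit on the same arrays. The call for Foxp1 thus rests on 1 of 3 probes, and the files used here do not say which part of the transcript each clone covers.

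Rarb went the other way in the NAc, where it had the smallest spread of the 9 member probes. The arrays with HAB in Cy3 had log2 HAB/LAB of -0.71, -0.71, -0.69, -0.61 and -0.59. Those with HAB in Cy5 had -1.09, -0.91, -0.80, -0.79 and -0.67. All 10 were lower in HAB, with a mean of -0.76 ± 0.15 (SD), so the LAB pool gave 1.69-fold more signal.

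In the Cg all 10 arrays were again lower in HAB, from -1.20 to -0.00, with a median of -0.52 and a mean of -0.52 ± 0.36. The value was -0.65 on the 6 arrays of the larger scan day of the Cg and -0.33 on the other 4, which all had HAB in Cy3. The CeA stood at 0.32 ± 0.35, with 8 of 10 arrays above 0 (limma, adjusted p = 0.396). The BLA (-0.16 ± 0.51), MeA (-0.13 ± 0.21), PVN (0.07 ± 0.14) and SON (-0.19 ± 0.30) lay within about their own spread of 0.

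Rarb was the member whose line difference varied between regions (limma F-test over 70 arrays, adjusted p = 2.29e-06), where 6.1% of all probes passed. In the NAc it was also the member past limma over the arrays (adjusted p = 0.00471), where 1.27% of all probes passed. No member passed over the arrays of another region, where the shares of all probes were 0.53% in the Cg, 0.101% in the BLA, 0.0701% in the CeA, 0.114% in the MeA, 0.386% in the PVN and 0.0789% in the SON. The NAc call was lost without the arrays of replicate number 3 (adjusted p = 0.0521) or 5 (0.0502), with the mean at -0.72 and -0.76. Over the 7 regions the mean of -0.19 ± 0.10 did not pass (limma, adjusted p = 0.822), and it was -0.10 without the NAc.

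Some markers of oligodendrocytes differed between the lines in the same regions as Rarb, and others did not. Each marker is given by its brightest probe alone, although Mbp and Mobp had 6 probes each and Cnp had 3. In the NAc Cnp and Mobp, both expressed in myelin-forming cells, were lower in HAB on 10 of 10 arrays (-1.36 ± 0.40 and -1.21 ± 0.26), while Mbp stood at 0.46, Mag at 0.30 and Mog at 0.06. In the Cg Cnp and Mobp were again lower in HAB on 10 of 10 arrays (-0.99 ± 0.34 and -0.89 ± 0.29). Mbp went the other way there, at 0.64 ± 0.38 with 10 of 10 arrays higher in HAB, as did Mag at 0.48 (7 of 10). In the CeA, where Rarb stood at 0.32, Cnp and Mobp were higher in HAB on 10 of 10 arrays (0.69 ± 0.41 and 0.72 ± 0.27), while Mbp stood at -0.40 there. In the SON Rarb stood at -0.19, Cnp at -0.23 and Mobp at -0.41. Mbp was higher in HAB on 10 of 10 SON arrays (0.74 ± 0.31). The summed signal of the 5 markers was 51842 in the HAB pool and 103990 in the LAB pool of the NAc, and log2 HAB/LAB of the sum was -1.004 there, -0.86 in the Cg, 0.29 in the CeA and -0.36 to 0.19 in the other 4 regions. The sum is of linear signal, so the brightest probes weigh most. In the NAc Cnp and Mobp stood at a log2 signal of 15.05 and 14.67, and Mag and Mog at 8.10 and 8.62. The median log2 HAB/LAB of the 5 markers there was 0.06, with 3 of 5 higher in HAB. Over all regions each of the 5 was above the empty spots on 24 to 70 of the 70 arrays in each line. Their part in the Rarb values was not tested. In punched tissue, fewer cells of a type and less RNA per cell cannot be told apart.

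**Figure D4:**
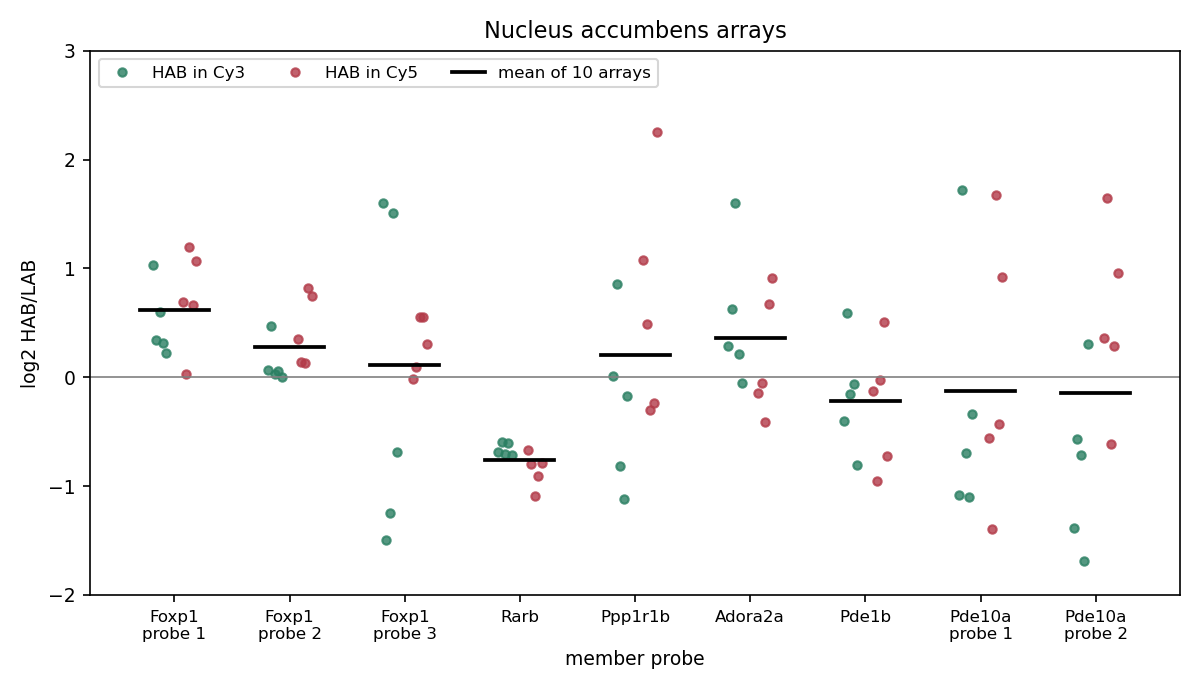
Log2 HAB/LAB of the 9 member probes on the 10 NAc arrays. Green points had HAB in Cy3, red points HAB in Cy5, and black bars are means. Foxp1 probe 1 lies above 0 and Rarb below 0 on 10 of 10 arrays, and probes near the empty spots spread over more than 2 log2 units.

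By the criterion of at least 1.3-fold and 10 of 10 arrays in 1 direction, 2 of the 9 member probes were counted in the NAc, Foxp1 probe 1 and Rarb, where 1.99% of all probes were (0.644% higher in HAB and 1.35% higher in LAB). Foxp1 probe 1 was not counted by loess without block medians, where its mean was 0.57, and it did not pass limma over the NAc arrays (adjusted p = 0.0682). In the Cg the same 2 probes were counted, against 1.59% of all probes (0.767% higher in HAB and 0.824% higher in LAB). No member was counted in the BLA, CeA, MeA, PVN or SON, where the shares were 0.223%, 1.01%, 0.587%, 0.736% and 0.556%.

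The signalling members gave no line difference that held in the NAc. Adora2a had a mean of 0.36 ± 0.60 with 6 of 10 arrays above 0, from -0.41 to 1.60. Ppp1r1b had 0.20 ± 1.00, from -1.12 to 2.26, with 5 of 10 above 0. Pde1b had -0.22 ± 0.52, from -0.95 to 0.59, with 2 of 10 above 0. The lowest adjusted p of these 3 over the NAc arrays was 0.467, for Adora2a (limma).

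Over the 7 regions Adora2a averaged 0.07 ± 0.09 (SE), Ppp1r1b 0.13 ± 0.09, Pde1b -0.05 ± 0.09, Pde10a probe 1 -0.05 ± 0.10 and Pde10a probe 2 0.05 ± 0.08. Each was higher in HAB in 3 or 4 of 7 regions. The widest region values were 0.55 for Ppp1r1b in the BLA and -0.58 for Pde1b in the SON, where Pde1b passed the empty spots on 2 of 10 arrays for HAB and 3 for LAB. None of these 5 probes passed over the regions or between regions (lowest adjusted p by limma 0.884 and 0.582).

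Other genes of the same pathways were set beside the members by the brightest probe of each. Of 25 genes of cAMP and dopamine signalling, 17 were on the array, and 5 were highest in the NAc, against 8.96% of all probes and 11.8% of those above the empty spots on at least 35 arrays. Arpp21, a cAMP-regulated phosphoprotein, was at 14.50 there against 9.82 to 13.12 elsewhere, and Prkar2b, a regulatory subunit of protein kinase A, at 11.52 against 9.61 to 10.87 (limma, unadjusted p = 0.0468 for both). The median difference between the NAc and the other regions over these 17 genes was 0.18, against -0.01 over all probes. None of the 17 passed for signal or for line after adjustment.

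Of 32 other striatal neuron genes 19 were on the array, 7 of them highest in the NAc, against 8.96% of all probes and 11.8% of those above the empty spots on at least 35 arrays. Before adjustment 4 of the 19 had a limma p under 0.05 for the line difference, against 6.33% of all probes, and none passed after it. Of these 4, Penk stood at -0.27, with regions from -0.42 to -0.11 (limma, adjusted p = 0.284). Tac1 stood at -0.35, with regions from -0.79 to 0.02 (limma, adjusted p = 0.190). Bcl11b went the other way, at 0.27, with regions from -0.06 to 0.78 (limma, adjusted p = 0.501). Penk had 2 probes and Bcl11b had 3, and only the brightest of each is given. Actn2 stood at -0.29 (limma, adjusted p = 0.485), but it passed the empty spots on only 6 arrays for HAB and 7 for LAB.

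Of 16 further phosphodiesterase genes 10 were on the array, and Pde1a, of the same family as Pde1b, was the 1 with its highest signal in the NAc (10.33 against 9.23 to 10.21). Of 17 genes of retinoic acid signalling 13 were present, but only 4 were above the empty spots on at least 35 arrays, and their NAc line differences ran from -0.46 for Rara to 0.39 for Crabp1 over all 13. Of 17 forkhead genes 13 were present, with line differences in the NAc from -0.28 for Foxk1 to 0.42 for Foxp2. Of 3 adenosine receptors 1 was present, Adora2b, which was higher in HAB in 7 of 7 regions (0.23, limma adjusted p = 0.647). So were 1.09% of all probes. No gene of these 4 lists was counted in the NAc by the criterion above or passed limma over the regions after adjustment.

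The lists of other cell types held 32 genes with a probe. By that criterion 2 of them were counted in the NAc, Cnp and Mobp, both higher in LAB, where 1.99% of all probes were counted (1.35% higher in LAB). Both belong to the 5 oligodendrocyte genes, whose median log2 HAB/LAB in the NAc was 0.06. The median difference of the NAc from the other regions was 0.45 for astrocyte genes, 0.11 for oligodendrocyte genes, 0.03 for microglia genes, -0.05 for excitatory cortical neurons, -0.11 for endothelium, -0.12 for magnocellular neurons, -0.23 for other interneurons and -0.41 for choroid plexus. No gene of cholinergic interneurons was matched on the array.

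The named probes whose signal over the 14 pools was most like that of Foxp1 probe 1 were monoglyceride lipase (r = 0.87), protein kinase C and casein kinase substrate in neurons 1 (0.86), a shaker-related potassium channel beta subunit (0.84), ferritin heavy chain (0.84) and guanine deaminase (0.84). Those most like Foxp1 probe 2 were breast carcinoma amplified sequence 3 (0.90), a clade B serine proteinase inhibitor (0.90), the transporter ABCG1 (0.88), dachshund 1 (0.88) and topoisomerase II beta (0.86). The 2 lists share no name. Those most like Rarb were nucleolar autoantigen (0.94), myelin basic protein (0.91), ribosomal protein S27 (0.91), emopamil binding protein (0.90) and endothelin converting enzyme-like 1 (0.90). The myelin basic protein probe in this list is not the Mbp probe whose line differences are given above, but another of the same gene.

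Pde1b was most like 3-phosphoinositide dependent protein kinase-1 (0.91), a divalent metal ion transporter of solute carrier family 11 (0.90), a LIM domain protein (0.90), sorting nexin 7 (0.89) and inositol hexaphosphate kinase 1 (0.89). For log2 HAB/LAB of Foxp1 probe 1 over the 7 regions they were kinesin 2 (0.96), methionine adenosyltransferase II alpha (0.95), the mineralocorticoid receptor (0.95), embryonal stem cell specific gene 1 (0.95) and mucosal vascular addressin cell adhesion molecule 1 (0.94). These are descriptions over 14 or 7 points out of about 4858 candidates, and the points share arrays between the lines of a region.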

How the data were processed

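Two-colour MPIP24k arrays of 7 regions were read from the scanner files. The deposited intensity values are foreground and local background per spot, per the file headers. The authors' log2 ratios, which the methods describe as globally and loess normalized, ran as HAB/LAB on every array (r with the ratios here 0.861 to 0.972) and served as an alternative. The dye of 3 arrays was taken from the image name.

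Background was corrected with normexp (offset 50), M by loess (span 0.4, controls at weight 0) and the median of each of 48 print-tip blocks, and A by Aquantile, in limma 3.58.1 with R 4.3.3. Arrays were averaged within, then over, the dye orientations. limma tests were adjusted by Benjamini-Hochberg over 22824 probes (threshold 0.05) and tested on simulated data. No array was left out.

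Every member probe was named. The rule for list genes took, per list and by the brightest probe, the 2 with the smallest p for NAc signal, the 2 with the smallest p for line and the extreme NAc line differences, and the text shows those that bear on a member. The 5 most alike named probes were taken by Pearson correlation. Oligodendrocyte markers beyond the rule were named after their values were seen. Members and lists were chosen with earlier results of these data known. Some genes of the lists are not reported here.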

Additional observations from a re-analysis of the deposited data

Results flagged for a closer look

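Of 36 groups of values of the member probes, 2 held a value far from the rest by Dixon's criterion, which chance meets in about 1 group of 20. Foxp1 probe 2 had 1 NAc array with HAB in Cy3 at 0.47 on the log2 HAB/LAB scale, where the other 4 lay between 0.00 and 0.07. Pde10a probe 1, which was near the empty spots, had 1 such array at 1.72. The line difference of Rarb differed between regions (limma F-test, adjusted p = 2.29e-06), being lowest in the NAc and highest in the CeA.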

How the results depend on the processing

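Foxp1 probe 1 was called over the 7 regions under 21 of 22 alternatives, with means from 0.37 to 0.60. The number of members called there fell from 1 to 0 with HAB in Cy5 alone and with the mean of all probes of a gene. Members counted in the NAc went from 2 to 1 by loess without block medians, where Foxp1 probe 1 averaged 0.57 but missed 10 of 10 arrays, and to 3 with HAB in Cy5 alone. Members past limma over the NAc arrays rose from 1 to 2 with the authors' values, where Foxp1 probe 1 passed (limma, adjusted p = 0.0163), ranged from 0 to 2 when arrays were left out (Foxp1 probe 1 passed at 0.0429 without the array with HAB in Cy5 and replicate number 2), and fell to 0 with the replicate number as a block (Rarb, limma adjusted p = 0.0691). Same-numbered NAc arrays of opposite orientation did not deviate together (r from -0.01 to 0.01 in 5 pairs), so the number does not pair them. The larger scan day alone and the fit without the CeA array that stood apart, both chosen after seeing the data, changed no count. The NAc held 1 scan day. No member reversed a call. Signal near the empty spots limits 5 of the 9 probes.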
